A study of Rattus norvegicus with 4 samples.

Results

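The interferon response genes Stat2, Irf1, Irf7, Irf9, Isg15, Ifit3, Mx1, Oas1a and Gbp2 were examined in dorsal root ganglia (DRG) of rats given cisplatin early in life. They were taken by symbol from the protein-coding rows of the gene count table, where all 9 were found once each, among 22293 protein-coding genes and 33506 genes in all. A filter on low counts kept 8 of the 9 for testing, with Ifit3 left out, and 14719 protein-coding genes overall. The table holds 4 libraries of whole lumbar DRG, with 2 from vehicle-treated and 2 from cisplatin-treated wild-type Wistar rats, each library made from several pooled ganglia. Cisplatin, a platinum chemotherapeutic that crosslinks DNA, was given at 0.3 mg/kg by intraperitoneal injection on postnatal days 14 and 16, and control rats received phosphate-buffered saline. The paper's methods place collection of the ganglia on postnatal day 23, but by the labels it took place 16 days after treatment. Both sexes were used in the study, and which library came from which is not stated in the sources used here. Replicate numbers 1 and 2 come from the labels and serve as names only.

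Interferons are secreted proteins that warn cells of infection or of misplaced nucleic acid. Type I interferons bind a receptor whose kinases activate STAT2, which joins IRF9 in ISGF3, a transcription factor complex that binds the interferon-stimulated response element (ISRE). The response to interferon-gamma runs through the gamma-activated site (GAS) and includes the induction of IRF1. The induced genes encode antiviral effectors such as ISG15, the IFIT, MX and OAS proteins and the guanylate-binding proteins. In sensory ganglia, neurons, satellite glia, endothelium and resident macrophages can all respond to interferon.

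Short stretches of the members' promoters are shown because these elements are how the genes are grouped by their regulation. RefSeq promoter sequences (build GRCr8, 250 bases before to 50 after the start site) were matched for 8 of the 9 genes, all but Isg15. The ISRE-like motif searched was GAAANNGAA, on both strands, and it was found in 4 of the 8 promoters, those of Irf7, Ifit3, Oas1a and Gbp2. Over all 33469 promoters of the same length, 9.71% held it. Each window below is written 5′ to 3′ on the strand of the match, with the match in capitals.
Gbp2, chr2:234005687-234005715, opposite to the gene: ttaagacaatGAAAGTGAAactaaaaaac
Irf7, chr1:205800073-205800101, opposite to the gene: tgcgtctcggGAAAATGAAacctaaactg
Ifit3, chr1:241527273-241527301, opposite to the gene: gtggaaactaGAAACTGAAacagacttaa
Oas1a, chr12:41330421-41330449, on the strand of the gene: tcgggaaatgGAAACTGAAaatcttgttc

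Ifit3 and Oas1a each held 2 matches, which overlapped in Oas1a. These windows lay close to the start site, with the match beginning at -68 for Irf7, -43 for Ifit3, -35 for Oas1a and -30 for Gbp2. The GAS-like motif searched was TTCNNNGAA, and it was found in 3 of the 8 promoters, those of Irf1, Irf9 and Oas1a, against 8.87% of all promoters. The window of Irf1, the gene of a factor that interferon-gamma induces, is shown.
Irf1, chr10:38417783-38417811, on the strand of the gene: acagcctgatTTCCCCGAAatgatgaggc

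Neither motif was found in the windows of Stat2 and Mx1, which says only that these letters are not there. The matches describe the sequence and were not tested as binding sites.

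Total counts ran from 21384801 to 25618417 per library. Genes were compared with edgeR's quasi-likelihood test on protein-coding counts, with TMM normalisation (a scaling of library size) and Benjamini-Hochberg adjustment over all 14719 genes. To be called, a gene needed an adjusted p under 0.05 together with a change of at least 1.5-fold. By that rule 1 of the 14719 genes was called, 0.00679%. A p-value here measures the spread between these 4 libraries only, and an exact permutation test of 1 gene cannot go below 0.333 with 2 libraries against 2.

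None of the 9 interferon response genes was called between cisplatin-treated and vehicle-treated rats by edgeR, and none of the 8 tested had an unadjusted p under 0.05. DESeq2 also called none of the 7 to which it gave an adjusted p, against 0.944% of all genes with one. Among the members, the transcription factors (Stat2, Irf9, Irf1, Irf7) varied least, with the highest library at 1.09 to 1.48 times the lowest, against 1.96 to 2.84 times for the tested effectors. The effectors Isg15, Mx1, Oas1a and Gbp2 were highest in cisplatin replicate 2, whereas cisplatin replicate 1 lay within or below the range of the vehicle-treated libraries, so that their groups overlapped. In whole tissue, a difference in the number of cells of a type and in RNA per cell cannot be told apart.

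**Figure D1:**
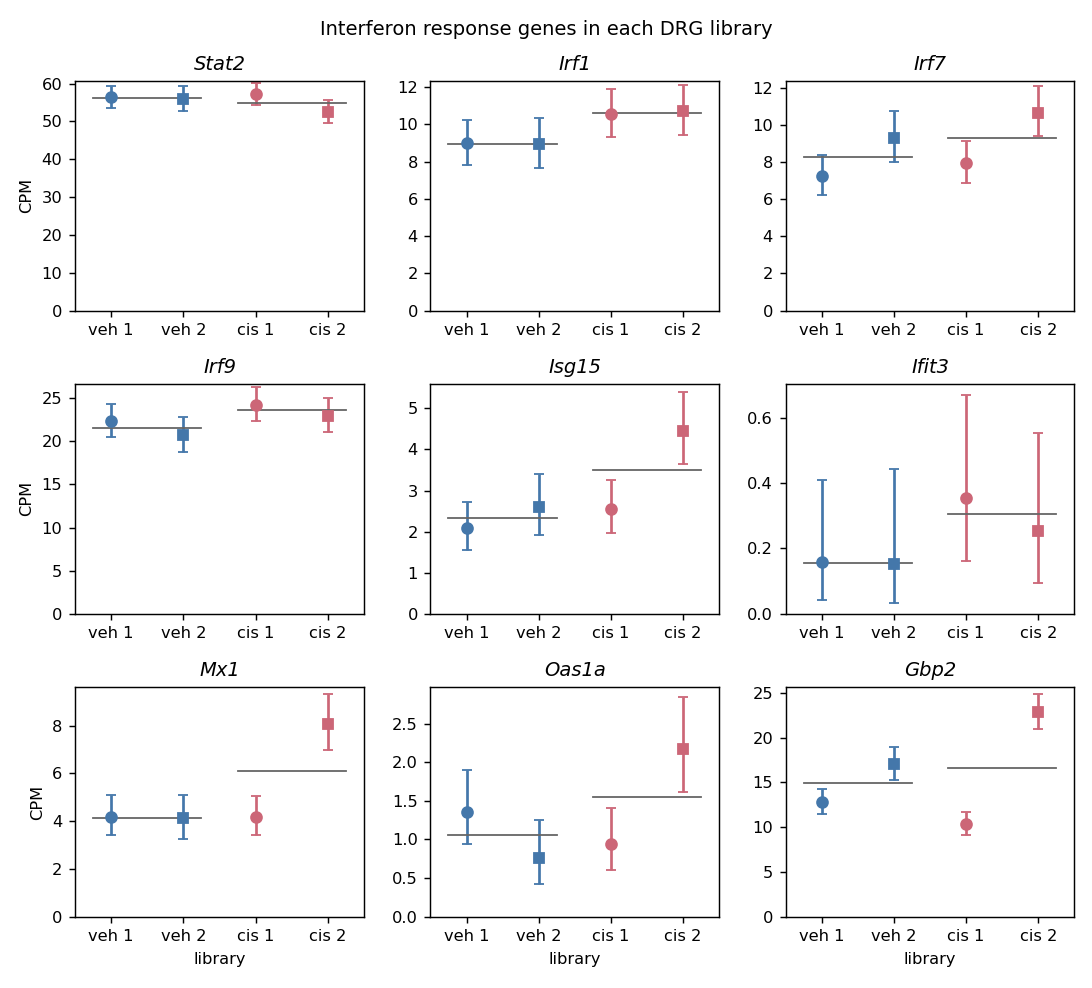
CPM (TMM-scaled, y axis from 0) of each interferon response gene in vehicle replicates 1 and 2 (blue) and cisplatin replicates 1 and 2 (red). Bars are exact 95% Poisson intervals for counting error only and grey lines are group means. Mx1 lay between 4.11 and 4.19 CPM in 3 libraries and at 8.07 CPM in cisplatin replicate 2.

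Stat2 (ENSRNOG00000031081; chromosome 7, 2691369 to 2707741, Rnor_6.0) encodes the STAT that is specific to type I and type III interferon signalling. Its counts were 1413 and 1101 after vehicle and 1452 and 1237 after cisplatin, or 56.4 and 55.9 against 57.1 and 52.6 CPM (counts scaled to a common, TMM-adjusted library size). The highest library was 1.09 times the lowest, and the groups overlapped. Stat2 was the most deeply counted member, and its log2 fold change from edgeR was -0.03 ± 0.17 (standard error), with a 95% interval of -0.46 to 0.39 and an adjusted p of 0.958.

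Irf9 (ENSRNOG00000019478; chromosome 15, 34282936 to 34288138) encodes the DNA-binding part of ISGF3. Vehicle-treated rats had 560 and 409 counts and cisplatin-treated rats 617 and 541, or 22.4 and 20.8 against 24.3 and 22.98 CPM. Both cisplatin-treated libraries lay above both vehicle-treated libraries, by a margin that was smaller than the counting interval of a single library. By edgeR the difference on the log2 scale was 0.13 ± 0.19 (standard error), with a 95% interval of -0.34 to 0.61 and an adjusted p of 0.839, and it was 0.08 without vehicle replicate 2.

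Irf1 (ENSRNOG00000008144; chromosome 10, 39109522 to 39116531) encodes the factor that carries much of the response to interferon-gamma. It was counted 225 and 176 times after vehicle and 268 and 252 times after cisplatin, or 8.98 and 8.94 against 10.5 and 10.7 CPM. Replicates of a group nearly coincided and the groups did not overlap, with means (± SD, n = 2 each) of 8.96 ± 0.033 CPM after vehicle and 10.6 ± 0.114 CPM after cisplatin. The log2 fold change from edgeR, 0.25 ± 0.22 (standard error), had a 95% interval of -0.31 to 0.80 and an adjusted p of 0.728. The standard error comes from a spread modelled across genes, which was wider than the spread of these replicates.

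Irf1 and Irf9 were the 2 of the 8 tested members in which both cisplatin-treated libraries lay above both vehicle-treated libraries, against 20.6% of all genes tested. Of the members, 0 had both cisplatin-treated libraries below, against 21.2% of all genes. The upward share was thus near the background and the downward share was below it, over only 8 genes.

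Irf7 (ENSRNOG00000017414; chromosome 1, 214248837 to 214252456) encodes the factor that amplifies type I interferon production. Vehicle-treated rats had 181 and 183 counts and cisplatin-treated rats 202 and 251, or 7.23 and 9.29 against 7.95 and 10.7 CPM. Replicate 2 was the higher library in both groups, and cisplatin replicate 1 lay between the vehicle-treated libraries. In the edgeR fit the log2 fold change was 0.17 ± 0.28 (standard error), with a 95% interval of -0.54 to 0.88 and an adjusted p of 0.864, and it was -0.05 without cisplatin replicate 2. It was 0.38 without cisplatin replicate 1, 0.36 without vehicle replicate 2 and 0.015 without vehicle replicate 1. Irf7 overlaps Phrf1 on the opposite strand by 65 bases, and whether the counting used strand is not stated, so reads in that stretch are uncertain. Phrf1 had 1039 to 1100 counts per library.

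Mx1 (ENSRNOG00000001959; chromosome 11, 37891156 to 37914983) encodes a dynamin-like GTPase that blocks viral replication. Its counts were 105 and 81 after vehicle and 106 and 190 after cisplatin, or 4.19 and 4.11 against 4.17 and 8.07 CPM. Cisplatin replicate 2 was 1.94 times the mean of the other 3 libraries, which were nearly equal. Its exact 95% Poisson interval, 6.96 to 9.30 CPM, lay above those of the other libraries, the highest of which reached 5.11 CPM. Such intervals hold for counting error alone, because the reads carried no molecular identifiers and PCR copies are not independent. Across all 4 libraries edgeR gave a log2 fold change of 0.56 ± 0.40 (standard error), with a 95% interval of -0.45 to 1.56 and an adjusted p of 0.666, and 0.01 without cisplatin replicate 2 and 0.96 without cisplatin replicate 1.

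Isg15 (ENSRNOG00000021802; chromosome 5, 173624310 to 173626248) encodes a ubiquitin-like protein that is joined to other proteins after interferon. It was counted 52 and 51 times after vehicle and 65 and 105 times after cisplatin, or 2.08 and 2.59 against 2.56 and 4.46 CPM. Cisplatin replicate 1 lay between the vehicle-treated libraries, and cisplatin replicate 2 was 1.85 times the mean of the other 3 libraries. Its log2 fold change of 0.59 ± 0.43 (standard error) from edgeR, with a 95% interval of -0.47 to 1.65 and an adjusted p of 0.666, was the highest among the tested members. It was 0.13 without cisplatin replicate 2 and 0.94 without cisplatin replicate 1.

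Oas1a (ENSRNOG00000001369; chromosome 12, 41200718 to 41211909) encodes a sensor of double-stranded RNA that makes the second messenger of RNase L. Its counts were 34 and 15 after vehicle and 24 and 51 after cisplatin, or 1.36 and 0.762 against 0.944 and 2.17 CPM. Cisplatin replicate 1 again lay between the vehicle-treated libraries. By edgeR the difference was 0.54 ± 0.60 on the log2 scale (standard error, 95% interval -0.96 to 2.03, adjusted p = 0.785) and turned to -0.18 without cisplatin replicate 2. It was 0.19 without vehicle replicate 2, 1.04 without vehicle replicate 1 and 1.02 without cisplatin replicate 1. Oas1a belongs to a cluster of near copies, and reads may be split among them. Summed over the 6 Oas1 genes of the table, the level was 4.11 and 2.39 CPM in vehicle-treated and 4.68 and 6.37 CPM in cisplatin-treated rats.

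Gbp2 (ENSRNOG00000031743; chromosome 2, 248276709 to 248293784) encodes a guanylate-binding protein, a GTPase induced mainly by interferon-gamma. Vehicle-treated rats had 321 and 335 counts and cisplatin-treated rats 263 and 537, or 12.8 and 17.0 against 10.3 and 22.8 CPM. The cisplatin-treated libraries were the lowest and the highest of the 4. Group means (± SD, n = 2 each) were 14.9 ± 2.97 CPM after vehicle and 16.6 ± 8.82 CPM after cisplatin. The edgeR estimate on the log2 scale, 0.15 ± 0.41 (standard error), had a 95% interval of -0.87 to 1.17 and an adjusted p of 0.915. It was 0.62 without cisplatin replicate 1, -0.53 without cisplatin replicate 2, -0.02 without vehicle replicate 1 and 0.37 without vehicle replicate 2.

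Ifit3 (ENSRNOG00000022839; chromosome 1, 252906234 to 252911373) encodes a partner of other IFIT proteins, which bind viral RNA. It was counted 4 and 3 times after vehicle and 9 and 6 times after cisplatin. Pooled over libraries, 7 against 15 counts gave a ratio of 1.96 with an exact 95% interval of 0.752 to 5.68 for counting error, so a difference was not detectable at this depth. The 4 Ifit genes of the table summed to 14.2 and 11.3 CPM in vehicle-treated and 10.3 and 13.1 CPM in cisplatin-treated rats, and these groups overlapped.

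**Figure D2:**
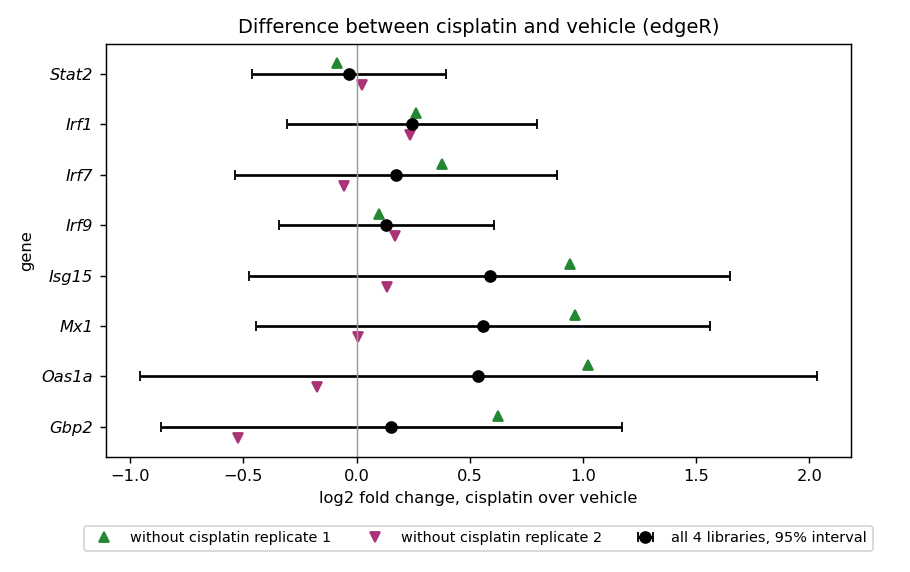
Log2 fold change of cisplatin over vehicle (x axis) for the 8 tested interferon response genes, from edgeR. Black points with bars are the fit on 4 libraries with 95% intervals, all of which include 0. Triangles leave out 1 cisplatin-treated library, and for Gbp2 they lie at 0.62 and -0.53.

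Over the 8 tested members the median log2 fold change was 0.21, against -0.01 over all genes tested. It lay above 0 in 7 of the 8 members, against 49.1% of all genes. This median rested on cisplatin replicate 2: it was 0.02 without that library and 0.50 without cisplatin replicate 1. Of the 8 members, 6 had their highest CPM in cisplatin replicate 2, against 18.9% of all genes tested. These were Irf1, Irf7, Isg15, Mx1, Oas1a and Gbp2.

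The deposited FPKM values, which divide counts by gene length and so allow levels of different genes to be compared, placed the members in order. Irf9 and Stat2 were the highest, with means over the 4 libraries of 13.8 and 13.5 FPKM, and their ranges overlapped. Gbp2 followed at 6.20 FPKM, Irf1 at 4.68 FPKM and Irf7 at 4.35 FPKM, and the ranges of these 3 genes overlapped as well. Isg15 at 2.17 FPKM and Mx1 at 1.52 FPKM overlapped with each other but not with Irf7 above them. Oas1a at 0.630 FPKM and Ifit3 at 0.111 FPKM lay below all others with separate ranges. Among the members, the transcription factors of ISGF3 were thus present at a higher level than the effectors in every library. Interferon-induced effectors outside the members lay on both sides, such as Ifi27l2b at 111 to 255 FPKM and Oas2 at 0.119 to 0.271 FPKM. Irf9 and Stat2 stood at the 64.8 and 64.0 percentile of the genes tested.

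Of the markers of other cells, most of those of neutrophils had the same highest library as the effectors, cisplatin replicate 2. Summed over the 5 neutrophil markers, the level was 28.7 and 19.6 CPM in vehicle-treated and 31.0 and 50.4 CPM in cisplatin-treated rats. Unlike in the effectors, cisplatin replicate 1 lay above both vehicle-treated libraries in this sum. The same held in S100a8, S100a9 and Csf3r. In Mpo, with 2.48 and 1.57 against 2.44 and 4.80 CPM, cisplatin replicate 1 lay between the vehicle-treated libraries. In Elane, with 0.479 and 0.457 against 0.393 and 2.00 CPM, it lay below them. Cisplatin replicate 1 in Mpo and Elane was thus placed as in the effectors. Of the 5, 4 (S100a8, S100a9, Mpo, Elane) were highest in cisplatin replicate 2, against 18.9% of all genes tested. Csf3r was higher in cisplatin replicate 1, at 1.69 CPM, than in cisplatin replicate 2, at 1.23 CPM. None of the 5 was at 0 in every library. Their part in the values of Isg15, Mx1, Oas1a and Gbp2 was not tested. The 12 macrophage markers summed to 76.3 and 88.5 CPM in vehicle-treated and 84.7 and 93.0 CPM in cisplatin-treated rats. Both cisplatin-treated libraries lay above both vehicle-treated libraries in 4 of the 12 and below in 4, against 20.6% and 21.2% of all genes tested. Of the 4 listed markers of plasmacytoid dendritic cells, which make much type I interferon, Siglech, a defining one, had 0 counts in every library. The others were counted in all libraries, at 140 to 228 for Tcf4, 122 to 236 for Bst2 and 80 to 97 for Irf8. The endothelial marker Cldn5 also had 0 counts in every library, beside 654 to 849 for Cdh5. A count of 0 for 1 marker thus does not show that a cell type is absent. 

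The labelled tissue was checked against its own cells. The 10 sensory neuron markers summed to 9033 to 14333 CPM, and the 6 Schwann cell markers to 47508 to 155324 CPM, so both were abundant. The Schwann cell sum was higher in replicate 2 of each group, at 155324 CPM in vehicle and 136255 CPM in cisplatin replicate 2, than in replicate 1, at 60424 and 47508 CPM. Irf7, Isg15 and Gbp2 were likewise higher in replicate 2 than in replicate 1 of each group. Stat2 and Irf9 were lower in replicate 2 of each group, and Irf1, Mx1 and Oas1a were lower in it after vehicle only. Across all genes tested, the difference of replicate 2 from replicate 1 correlated between the groups (Pearson's r = 0.444). The part of Schwann cell RNA in the values of the members was not tested.

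**Figure D3:**
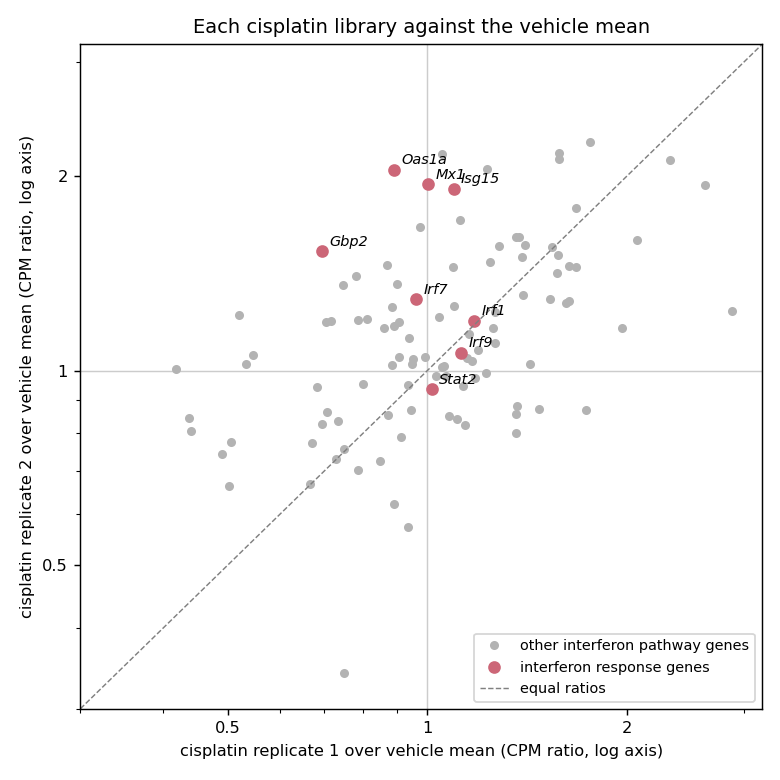
Ratio of CPM in cisplatin replicate 1 (x axis) and cisplatin replicate 2 (y axis) to the mean of the vehicle-treated libraries, both on log axes, for the 8 tested members (red) and 99 other interferon pathway genes (grey). Oas1a, Mx1, Isg15 and Gbp2 lie above the dashed line of equal ratios, at 2.04, 1.94, 1.91 and 1.53 on the y axis.

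The other genes of the pathway were read from 7 lists ordered by role. Of 127 symbols listed, 111 rows of the table had any count and 99 were tested. None of the 99 was called by edgeR. At an unadjusted p under 0.05, 7 of the 99 were higher and 1 was lower, against 3.7% and 5.73% of all genes tested. DESeq2 called 1, Ifitm1, beside its share of 0.944% over all genes. Both cisplatin-treated libraries lay above both vehicle-treated libraries in 27 of the 99 and below in 13, against 20.6% and 21.2% of all genes tested. These last shares are also the background for the counts of separated groups in each list that follows.

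Transcripts of the interferons themselves were scarcely present. Of 9 interferon ligand genes in the table, 5 had 0 counts in all 4 libraries: Ifng, Ifna2, Ifna4, Ifna16l1 and Ifnl3. At this depth, 0 counts allow a level of up to 0.118 to 0.152 CPM, the value of 3 counts per library. Ifnb1 had 3 counts and Ifne 6 counts, all in cisplatin replicate 1, and Ifnk had 11 counts over the 4 libraries. None of the 9 passed the filter on low counts. Without that filter, edgeR gave the 4 with counts adjusted p-values of 0.709 to 0.834.

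All 9 receptors and kinases were tested. Both cisplatin-treated libraries were higher in 3 of them and lower in 3, with a median log2 fold change of -0.03. Ifngr2, the accessory chain of the interferon-gamma receptor, had 24.6 and 35.3 CPM in vehicle-treated and 49.0 and 43.5 CPM in cisplatin-treated rats. The groups did not overlap, and the log2 fold change was 0.63 (unadjusted p = 0.043, adjusted p = 0.523 from edgeR). Il10rb, a receptor chain shared by interferon-lambda and interleukin-10, had 10.3 and 11.4 against 16.6 and 14.02 CPM (log2 fold change 0.50, adjusted p = 0.540 from edgeR). Jak2, a kinase of the interferon-gamma receptor, had 36.3 and 43.7 against 28.2 and 34.5 CPM (log2 fold change -0.35, adjusted p = 0.613 from edgeR). Leaving out vehicle replicate 1 gave 0.40 for Ifngr2, and for Jak2 the value was -0.20 without cisplatin replicate 1 and -0.21 without vehicle replicate 2.

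Among 9 other interferon regulatory factors and their binding partners, 0 were separated upward and 3 downward. Irf2bp2, a corepressor that binds IRF2, had 42.3 and 50.7 CPM in vehicle-treated and 22.8 and 34.5 CPM in cisplatin-treated rats (log2 fold change -0.70, unadjusted p = 0.041, adjusted p = 0.523 from edgeR), and its log2 fold change was -0.42 without cisplatin replicate 1. Its relative Irf2bpl had 49.8 and 44.2 against 32.7 and 38.9 CPM (log2 fold change -0.39, adjusted p = 0.562 from edgeR). Irf4, a lymphoid factor, had 36 and 11 counts against 19 and 8 counts, and its groups overlapped.

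Of 13 tested sensors and adaptors, which detect nucleic acid and start interferon production, 3 were separated upward and 2 downward. Trex1, the exonuclease that removes cytosolic DNA, had 10.2 and 10.4 CPM in vehicle-treated and 15.9 and 16.0 CPM in cisplatin-treated rats. The replicates of each group nearly coincided, with a log2 fold change of 0.63 (unadjusted p = 0.0234, adjusted p = 0.522 from edgeR). Tlr3, a receptor of double-stranded RNA, had 2.64 and 2.64 against 3.70 and 4.12 CPM (log2 fold change 0.57, adjusted p = 0.604 from edgeR). Ifih1, which encodes the RNA sensor MDA5, had 5.99 and 4.11 against 3.38 and 3.91 CPM (log2 fold change -0.47, adjusted p = 0.671 from edgeR), and its log2 fold change was -0.16 without vehicle replicate 1.

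Of 41 tested genes on the list of other interferon-induced effectors, 14 were separated upward and 4 downward (20.6% and 21.2% over all genes), and their median log2 fold change was 0.18. Ifitm1, which encodes a membrane protein that hinders viral entry, had 10.9 and 14.8 CPM in vehicle-treated and 29.7 and 27.1 CPM in cisplatin-treated rats. edgeR gave a log2 fold change of 1.15 ± 0.24 (standard error) with an adjusted p of 0.522, and DESeq2 an adjusted p of 0.039. Both cisplatin-treated libraries were high, in contrast to Mx1. Its relative Ifitm2 had 15.4 and 33.4 against 38.5 and 52.9 CPM (log2 fold change 0.91, adjusted p = 0.540 from edgeR), and reads of these near copies may be split. For Ifitm2 the log2 fold change was 0.47 without vehicle replicate 1 and 1.57 without vehicle replicate 2.

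Ifi27l2b, a gene of the interferon-inducible IFI27 family, had 62.3 and 51.5 CPM in vehicle-treated and 117.8 and 90.6 CPM in cisplatin-treated rats (log2 fold change 0.87, adjusted p = 0.522 from edgeR). Isg20, an RNA exonuclease gene, had 19 and 17 counts against 54 and 37 counts (log2 fold change 1.19, adjusted p = 0.523 from edgeR). Both were higher in cisplatin replicate 1 than in cisplatin replicate 2, the reverse of the order in Mx1 and Isg15. Oas1k and Epsti1 had log2 fold changes of 0.78 and 0.63, and Oas2 and Samhd1 of -0.77 and -0.59, each with separated groups and an adjusted p of 0.595 to 0.677 from edgeR. Without vehicle replicate 1 the value was 1.46 in Oas1k and -0.34 in Samhd1, and without vehicle replicate 2 it was 0.34 in Oas1k.

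Of 17 tested entries of genes known for induction by interferon-gamma (GTPases, chemokines and antigen processing), 6 were separated upward and 0 downward (20.6% and 21.2% over all genes), with a median log2 fold change of 0.29. Tap2 was among these entries under separate gene identifiers, each of them counted. In 10 of the 17, cisplatin replicate 2 was the highest library, against 18.9% of all genes. Cxcl9, a chemokine that attracts T cells, had 1.72 and 2.54 CPM in vehicle-treated and 3.74 and 4.80 CPM in cisplatin-treated rats (log2 fold change 1.01, unadjusted p = 0.0439, adjusted p = 0.523 from edgeR). Psmb8, an immunoproteasome subunit, had 2.72 and 1.52 against 3.34 and 4.50 CPM (log2 fold change 0.88, adjusted p = 0.562 from edgeR), and its log2 fold change was 1.37 without vehicle replicate 1 and 0.53 without vehicle replicate 2. B2m, the light chain of MHC class I, had 313.1 and 320.9 against 498.3 and 478.2 CPM (log2 fold change 0.62, adjusted p = 0.522 from edgeR). Psme2, a proteasome activator subunit, had 39.5 and 37.2 against 47.8 and 56.5 CPM (log2 fold change 0.44, adjusted p = 0.532 from edgeR), and Ido1 had 0 counts in every library.

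The 10 negative regulators had a median log2 fold change of 0.04. Socs3, a feedback inhibitor of JAK kinases, had 4.99 and 5.79 against 2.87 and 5.52 CPM, with overlapping groups. Ptpn6, with 3.67 and 5.08 against 6.02 and 7.05 CPM, and Ptpn11, with 150.2 and 146.7 against 116.9 and 104.4 CPM, are genes of phosphatases that act on JAK and STAT signalling. Their groups were separated in opposite directions, with log2 fold changes of 0.58 and -0.42 (adjusted p = 0.585 and 0.540 from edgeR). Without vehicle replicate 1 the value of Ptpn6 was 0.38.

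**Figure D4:**
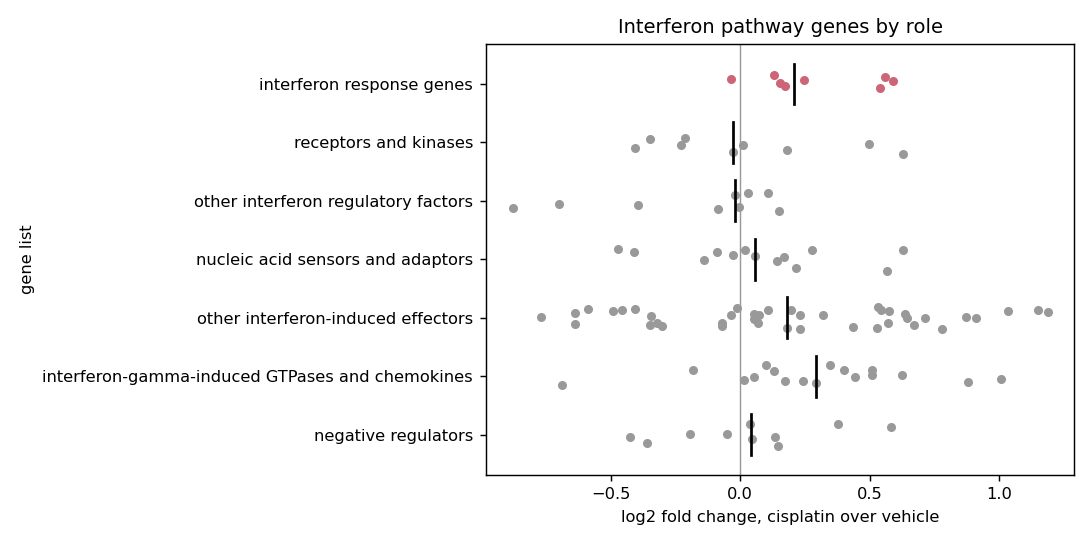
Log2 fold change of cisplatin over vehicle (x axis) for each tested gene, by list (y axis), with the list's median as a black line. The interferon response genes (red) have a median of 0.21 and the 17 entries of interferon-gamma-induced genes, antigen processing genes included, a median of 0.29.

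The genes whose profile over the 4 libraries was most like the mean of the 8 tested members were sought among 13632 other genes with a mean of at least 1 CPM. The 8 nearest were Ssbp4, Rbbp7, Aamdc, Dnajc2, Gtf2ird1, Acat1, Tbc1d2 and Urod, with Pearson's r from 0.997 to 0.999. With 4 libraries and a profile set by 1 of them, this is a description only. The nearest gene, Ssbp4, had 56.1 and 56.5 CPM in vehicle-treated and 56.2 and 61.4 CPM in cisplatin-treated rats, a far smaller difference in cisplatin replicate 2 than in Mx1.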

How the data were processed

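RNA of pooled lumbar DRGs was sequenced as poly(A)-selected paired reads. Per the methods and the submitters' processing notes, the authors mapped reads to the Rnor_6.0 rat genome with HISAT2 2.0.5, assembled transcripts with StringTie 1.3.3b and named featureCounts 1.5.0-p3, and they deposited raw counts per gene. The strand setting is not given in the sources used here. The authors also deposited FPKM values, which are these counts divided by gene length and by 1 constant per library. Samples were grouped by their titles. Protein-coding genes passing edgeR's filterByExpr (14719 of 22293) were fitted with edgeR 4.0.16 in R 4.3.3 (TMM, glmQLFit, glmQLFTest, group only). Alternatives used DESeq2 1.42.0 and limma 3.58.1 on log2(FPKM + 1) and log2(FPKM + 0.1), where changes of low genes are understated. DESeq2 gives no adjusted p to genes that its independent filtering removes. Standard errors were derived from the F statistic. The test code was run on simulated data with large changes and no replicate effect. That run does not show how the tests behave for changes as small as those of the members. For likeness, log2 CPM was computed with prior count 2. The members and lists were chosen with earlier results of these data known. Genes named beyond the members were those with the 3 smallest p in each list, those separated with a fold change of at least 1.5, those at 0 counts and the 8 most alike. Other genes (Ifnb1, Ifnk, Siglech, Tcf4, Bst2, Irf8, Cldn5, Cdh5, Phrf1, Tap2, the neutrophil genes) were named after their values were seen. A gene of the receptor list is not reported here. No per-library column was left unused.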

Additional observations from a re-analysis of the deposited data

How the results depend on the processing

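No member was called under any of the 14 alternatives. The median log2 fold change of the members moved by more than the spread within groups only when a cisplatin-treated library was left out, and over the libraries left out in turn it ranged from 0.015 to 0.50. A correction for gene length made some log2 fold changes smaller, at 0.026 in Irf9, 0.55 in Ifi27l2b, -0.16 in Jak2 and -0.19 in Ptpn11. Others grew, to 0.65 in Mx1, 0.74 in Tlr3 and -0.78 in Irf2bp2. The log2 fold change of Stat2 turned to 0.11 with this correction. With each library left out in turn, it ranged from -0.089 to 0.024 in Stat2, -0.054 to 0.38 in Irf7, -0.18 to 1.04 in Oas1a, -0.53 to 0.62 in Gbp2 and -0.91 to 0.044 in Socs3, with the change of sign coming without cisplatin replicate 2 (for Gbp2 also without vehicle replicate 1, at -0.02, and for Socs3 without cisplatin replicate 1 only). The cause was not tested. The number of genes called in all was 1 with TMM, 4 without the filter, 2 where every library had to hold at least 10 counts, 124 with DESeq2, 4 with limma on log2(FPKM + 1) and 2 on log2(FPKM + 0.1), and 0 to 7 with 1 library left out. With 1 library left in a group, its spread is assumed to equal that of the other group. A fit with a replicate block called 1532 of the 14719 genes tested, 494 higher and 1038 lower. It called 0 members and 9 of the 99 other pathway genes, 8 higher and 1 lower. Only the share called in either direction was near that over all genes. The directions differed, with more pathway genes called higher than lower, but more of all genes called lower than higher. Of those 99, the fit without the block called 0 and DESeq2 called 1. The replicate numbers name different rats and form only 2 pairs, so the block shows no pairing by design. The difference of replicate 2 from replicate 1 did correlate between the groups across genes, which are not independent replicates (Pearson's r = 0.444). The lowest adjusted p of a member under any alternative was 0.314, for Mx1 with the block. Of 446 single-gene values over the alternatives, 431 kept their direction and their side of the threshold, 7 changed sign and 8 passed the threshold. Depth limits Ifit3 and the interferon ligands.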
